A study of Eonycteris spelaea and Mus musculus with 51 samples.

Results

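The cytosolic ribosomal protein genes of the mouse were followed through heat shock of the living animal and recovery in lung, muscle and blood. Rows of the mouse count table were taken by name (Rpl or Rps followed by a number with at most the endings a, x, l, y or l1, together with Rplp0, Rplp1, Rplp2 and Rpsa). This gave 85 of 40840 rows. Of these, 76 are core genes, coding for 30 proteins of the small subunit, 43 of the large subunit and the 3 proteins of the stalk. The other 9 rows are paralogues and look-alikes kept apart: Rpl3l, Rpl10l, Rpl22l1, Rpl39l, Rpl7l1 and Rps27l, which are protein-coding, and Rpl32l, Rpl6l and Rps4l, which GENCODE M21 lists as processed pseudogenes, the last of them transcribed. The name rule leaves out some genes, such as Rps3a1 and Rack1, that also code for proteins of the ribosome or a close copy of one, and 5 of these were counted as a separate list.

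The series holds 51 bulk RNA-sequencing libraries, 24 of them from mice and 27 from bats, which are not analysed here. In each organ control mice were sampled at baseline with no treatment, heat mice straight after 1 h of heat shock, and recovery mice after 1 h of heat shock and a further 4 h of recovery, with 3 lungs, 3 muscles and 2 bloods per condition. Strain, sex and age are not stated in the labels used here, nor whether each library is a separate animal, so p-values measure the spread between these libraries, which may be technical. There is no unheated group sampled at the later times, so heat, handling and elapsed time cannot be told apart.

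The cytosolic ribosome has a small subunit that decodes the messenger RNA and a large subunit that joins amino acids. Its proteins are made in matched amounts, and mammalian ribosomal protein messengers typically begin with a run of pyrimidines, the terminal oligopyrimidine (TOP) motif, through which mTORC1 and the RNA-binding protein Larp1 control their translation without needing a change in the amount of messenger. Heat shock is known to halt ribosome production and to slow translation, and striated muscle is known for a large-subunit paralogue, Rpl3l, that takes the place of Rpl3.

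Each library held between 17092519 and 54493918 counts. The organ labels matched their markers: 12 lung epithelium genes summed to 15842 to 18247 CPM (counts scaled to library size) in lungs, 10 fast muscle fibre genes to 59122 to 114700 CPM in muscles, and 11 erythroid genes to 370160 to 917780 CPM in bloods, against at most 10.2, 440 and 8285 CPM of those lists in the other organs. CPM here are scaled with TMM factors. Apart from these marker sums, values scaled within 1 organ are not set against another organ. In whole tissue, fewer cells of a type and less RNA per cell cannot be told apart. The strand setting of the counting is not stated, and reads of a ribosomal protein gene, its paralogue and its many processed copies can be split between rows, so values of single members carry that uncertainty. The 76 core genes were tested in all 3 organs. Of the 9 other rows, 6 passed the filter on low counts in lung, 6 in muscle and 5 in blood.

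The start of the transcript was read from the GENCODE M21 transcripts (GRCm38), 1 transcript per gene. A TOP-like start was counted where the first 20 bases held a C followed by at least 5 further C or T bases, on the transcript's own strand. Of the 76 core genes, 27 (35.5%) held such a run, against 2918 of 21877 protein-coding genes (13.3%) and 0 of the 6 protein-coding paralogues. Rpl17 and Rps14 had no start recorded here and count among the core genes without a run. The annotated first base can lie before or after the start used in these tissues, so the count describes the annotation. The starts of 5 core genes and of the muscle pair Rpl3 and Rpl3l are shown because the results turn on several of them and because they differ in this feature. The run is in capitals.
Rps24: CTCTTTTCCTCCTCTCCagc
Rpl32: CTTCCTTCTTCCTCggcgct
Rps2: CTTCTTCTTCTTCgggagaa
Rps27: gCTCCTTTCCggcggtgacg
Rpl30: CCTTTCTCgctccccggcca
Rpl3: agggggcggagccatcactt
Rpl3l: agctctgtcatttgacctct

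Levels of different genes were set side by side per kilobase of coding sequence, in the control libraries and on 1 scale for the 3 organs. Rpl41, the shortest protein of the ribosome with 75 coding bases, had the highest value in each organ, at 1140 ± 64.2 CPM per coding kilobase in muscle (SD, n = 3), 3325 ± 526 in blood (n = 2) and 869 ± 31.6 in lung (n = 3). Reads over untranslated ends count too, which weighs most on so short a coding sequence. Rplp1, a stalk protein, was also among the 3 highest in every organ, at 466 ± 49.2 CPM per coding kilobase in muscle, 754 ± 33.2 in blood and 248 ± 17.2 in lung. The remaining place went to Rplp0, the base of the stalk, in muscle (425 ± 95.8), to Rpl39, which lines the exit tunnel, in blood (779 ± 23.4) and to Rpl10, which joins late in assembly, in lung (279 ± 19.7). Rpl36a was lowest throughout, at 31.5 ± 2.96 CPM per coding kilobase in muscle, 53.5 in blood and 22.2 ± 3.16 in lung. Other low values were those of Rpl21 (58.7) and Rpl35a (61.0) in muscle, Rpl22 (96.5) in blood, and Rpl24 (47.3) and Rps13 (51.7) in lung. The highest and the lowest core gene, Rpl41 and Rpl36a, differed 36.2-fold in muscle, 62.1-fold in blood and 39.1-fold in lung. These folds rest on the value of Rpl41, on which reads over untranslated ends weigh most, so they overstate the spread of the other genes. The order of the genes was much alike between organs. Across the 76 genes, which share their libraries and their length scale, Spearman's rho was 0.878 for muscle and lung, 0.895 for blood and lung and 0.804 for muscle and blood.

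Between control organs, the ribosomal protein genes moved largely as a block, with a few members that departed from it. Calls were made on TMM-scaled counts by the quasi-likelihood test of edgeR, with p-values adjusted by Benjamini and Hochberg's method over all genes tested. All 76 core genes were higher in blood than in lung, with a median log2 change of 1.40, against 28.8% of all genes called higher, 35.2% called lower (64% in either direction) and a median of −0.11 over 21186 genes. In all 76 core genes the blood and lung libraries did not overlap, against 80.3% of all genes. In muscle against lung 66 of 76 were higher and 1 was lower, with a median of 0.58, against 29.8% of all genes called higher, 30.4% called lower (60.2% in either direction) and an overall median of −0.07. Muscle and lung did not overlap in 71 core genes, against 69% of all genes, and 68 core genes had an unadjusted p under 0.05, against 64.2% of all genes. In muscle against blood 68 of 76 were lower and 0 higher by edgeR, with a median of −0.86, against 30.1% of all genes called lower, 39.7% called higher (69.9% in either direction) and an overall median of 0.25. Muscle and blood did not overlap in 72 core genes, against 78.8% of all genes. An unadjusted p under 0.05 was found for 68 core genes in muscle against blood and for 76 in blood against lung, against 72.5% and 67.3% of all genes. DESeq2 called 67 core genes lower and 0 higher in muscle against blood. The height of this block depends on scaling. With library totals and no scaling factors, the core median was −0.20 in blood against lung, −0.44 in muscle against lung and −0.29 in muscle against blood, while the median of all genes was −1.71, −1.09 and 0.82. Of the 76 core genes, 52 were then below 0 in blood against lung, 72 in muscle against lung and 62 in muscle against blood. The calls then became 1 higher and 11 lower in blood against lung, 1 higher and 42 lower in muscle against lung, and 5 higher and 21 lower in muscle against blood. Under that scaling 6.6% of all genes were called higher and 73.4% lower in blood against lung, 12.3% and 59.9% in muscle against lung, and 48.2% and 16.7% in muscle against blood. Globin genes and Ttn held 50.9% to 67.4% of the counts in blood, 14.95% to 19.7% in muscle and 0.373% to 1.02% in lung. For these reasons the members are given below also by their distance from the core median, which does not depend on a common scaling.

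Among small subunit genes, Rps2, which lies at the entry of the messenger channel, stood farthest above the block in muscle. Its levels were 314, 277 and 476 CPM in muscle, 258 and 275 CPM in blood and 111, 121 and 112 CPM in lung. Every muscle library was above every blood library, and every blood library above every lung library. Muscle exceeded lung by 1.64 on the log2 scale (SE 0.20, adjusted p = 0.000157 by edgeR), which is 1.05 above the core median, and the difference of 0.42 (SE 0.22) between muscle and blood did not pass the test. Rps27, a zinc-binding protein of the small subunit, departed the other way. It had 41.3, 37.3 and 34.7 CPM in muscle, 151 and 146 CPM in blood and 37.0, 37.3 and 37.5 CPM in lung. Muscle and lung overlapped, with a log2 change of 0.02 (SE 0.10), while blood exceeded lung by 1.99 (SE 0.11) and muscle lay 1.97 below blood (SE 0.11), 1.12 beyond the core median. Rps9 was among the 4 clearest rises of blood over lung, at 1.75 (SE 0.11), and Rps10 among the 4 clearest falls of muscle against blood, at −1.37 (SE 0.12). The other small subunit genes of the panel, Rpsa, Rps3, Rps4x, Rps6, Rps14, Rps27a and Rps29, were all called higher in muscle than in lung, by 0.32 to 0.86, and higher in blood than in lung, while under library totals 72 and 52 of the 76 core genes lay below 0 in these comparisons. Rps19, whose loss causes Diamond-Blackfan anaemia in people, was higher in blood than in lung by 1.49 (SE 0.19), and its muscle and lung libraries overlapped (log2 change 0.01, SE 0.17).

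Among large subunit genes, Rpl3, which reaches into the peptidyl transferase centre, was lowest relative to the block in muscle. Its 3 muscle libraries had 114, 112 and 57.8 CPM, its blood libraries 273 and 322 CPM and its lung libraries 137, 151 and 141 CPM. The muscle libraries all lay below the others and the third was far below its own group. The log2 change of −0.59 (SE 0.24) in muscle against lung missed the threshold (adjusted p = 0.0594), while that of −1.65 (SE 0.26) against blood passed it. Rpl21 was the 1 core gene called lower in muscle than in lung, with 27.1, 27.8 and 29.7 CPM in muscle and 38.0, 33.1 and 42.1 CPM in lung (−0.42, SE 0.12, adjusted p = 0.0139 by edgeR). Rpl24, which bridges the subunits, and Rpl36 exceeded the core median in muscle against lung by 0.65 and 0.61. Rpl12, at the base of the stalk, led blood over lung with 235 and 233 CPM in blood and 48.6, 57.5 and 51.1 CPM in lung (2.16, SE 0.13), and it was 1.52 lower in muscle than in blood (log2 change −1.52, SE 0.13). Rpl22, whose loss in mice impairs αβ T cell development, was at the other end. Blood had 34.5 and 39.6 CPM of Rpl22 and lung had 27.6, 29.1 and 29.8 CPM, a log2 change of 0.36 (SE 0.12), 1.04 below the core median. The stalk genes Rplp0, Rplp1 and Rplp2 were all called higher in muscle than in lung, by 1.13, 0.91 and 0.86, and in blood than in lung, by 1.81, 1.60 and 1.95. Among the members followed singly, the direction under library totals turned in blood against lung to −0.38 for Rps2, −0.54 for Rpl3, −0.67 for Rpl21, −1.23 for Rpl22, −0.41 for Rpl24 and −0.0072 for Rplp1, and that in muscle against lung to −0.39 for Rpl12, −0.52 for Rpl22, −0.998 for Rps27 and −0.13 for Rplp1.

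**Figure D1:**
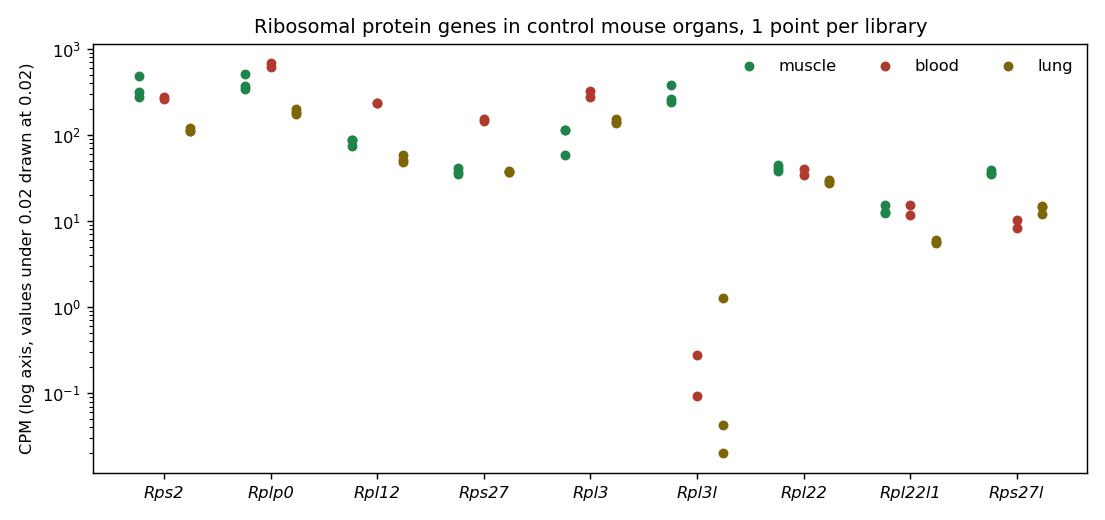
TMM-scaled CPM (log axis) of 6 core genes and 3 paralogues in control muscle (3 libraries), blood (2 libraries) and lung (3 libraries), 1 point per library; values under 0.02 are drawn at 0.02. Rps2 and Rpl3l are highest in muscle, Rpl12 and Rps27 are highest in blood, and Rpl3l is at or below 1.28 CPM in every blood and lung library.

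Among the paralogues Rpl3l, the muscle form of Rpl3, differed most between organs. It had 263, 240 and 378 CPM in muscle, 0.277 and 0.0931 CPM in blood and 1.28, 0 and 0.0424 CPM in lung. Muscle was separated from the other organs by more than the range within any of them, with a log2 change of 9.47 (SE 0.95, adjusted p = 4.64e-05) over lung and 10.65 (SE 1.29, adjusted p = 0.000107) over blood by edgeR. The lung library with 1.28 CPM of Rpl3l also had the highest sum of fast fibre genes among lungs, 440 CPM. Per coding kilobase, Rpl3l reached 240 ± 60.7 CPM in muscle, a level in the range of the core genes. Rps27l had 35.3, 36.1 and 39.3 CPM in muscle, 8.32 and 10.3 CPM in blood and 11.9, 14.8 and 14.4 CPM in lung, and was called higher in muscle than in lung (1.43, SE 0.13), lower in blood than in lung (−0.56, SE 0.15) and higher in muscle than in blood (1.98, SE 0.16). In blood the core gene Rps27 and its paralogue thus moved apart relative to lung. Rpl22l1 was higher in muscle (1.23, SE 0.15) and in blood (1.24, SE 0.17) than in lung, with 15.5, 12.3 and 12.8 CPM in muscle, 11.8 and 15.5 CPM in blood and 6.07, 5.62 and 5.65 CPM in lung. Its direction in blood turned to −0.35 under library totals. Rpl7l1, a nucleolar relative of Rpl7, was higher than in lung by 0.41 both in muscle and in blood. Library totals lowered the core median in both comparisons, and Rpl7l1, Rpl6l and Rpl32l were not read under that scaling. The pseudogene rows Rps4l and Rpl32l were lower in muscle than in lung, by −0.82 and −1.91 on the log2 scale, and lower in blood than in lung, by −1.96 and −1.57, and Rpl6l was higher in blood than in lung (0.95, SE 0.31). Rpl10l, a testis gene in mice, had 0 counts in all 24 libraries, and Rpl39l, also known from testis, stayed at or below 0.310 CPM in every library when scaled within its organ.

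Reads of Rpl3 and Rpl3l can be told apart along most of the coding sequence. The 2 coding sequences were identical at 74.4% of 1205 aligned bases, with a longest identical run of 22 bases. In their first 60 coding bases, printed from GENCODE M21 with the 13 differing bases in capitals, they read as follows.
Rpl3l: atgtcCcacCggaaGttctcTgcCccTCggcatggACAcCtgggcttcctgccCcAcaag
Rpl3: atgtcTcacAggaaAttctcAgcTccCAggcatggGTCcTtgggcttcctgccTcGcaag
The other protein-coding pairs were identical at 84.7% (Rpl10l), 85.0% (Rpl39l), 70.2% (Rpl22l1), 62.6% (Rpl7l1) and 76.2% (Rps27l) of aligned coding bases, with longest identical runs of 23, 38, 26, 10 and 11 bases.

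In lung, heat shock left the ribosomal protein genes within narrow bounds. Heat lungs summed to 8924 to 9507 CPM over the 76 core genes and control lungs to 8192 to 8928 CPM. By edgeR, 0 of 76 core genes were called in heat against control, 5 had an unadjusted p under 0.05 (23.5% of all genes did) and DESeq2 called 1, Rplp1, while 5.85% of 19438 genes were called (610 higher and 528 lower). The log2 changes of the core genes had a median of 0.06 and an SD of 0.10, against −0.01 and 0.53 for all genes. The 95% interval of the fold change lay within 2-fold for all 76. In 10 core genes (13.2%) the heat libraries lay wholly above or below the controls, against 26.9% of all genes. Rplp1 had the largest change, with 165, 177 and 177 CPM in heat lungs and 134, 153 and 145 CPM in control lungs. All heat libraries were above all controls, and the log2 change of 0.26 (SE 0.08) missed the threshold (adjusted p = 0.0667 by edgeR). Rpl38, which in mice is needed for the translation of Hox messengers, had the lowest value, −0.20 (SE 0.10), with 27.8, 35.7 and 33.1 CPM in heat lungs and 35.5, 36.6 and 38.8 CPM in control lungs.

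In recovered lungs the core genes lay around their control values. The core sum was 7986 to 9294 CPM in recovery lungs, and against control the median log2 change was 0.00 (SD 0.08), with 0 of 76 genes called by edgeR, 0 under an unadjusted p of 0.05 (7.14% of all genes were) and 0 called by DESeq2, while 0.0309% of all genes were called. Recovery and control did not overlap in 2 core genes (2.63%), against 16.8% of all genes. The extremes were Rps28 at 0.18 and Rps26 at −0.20. Against heat, recovery lungs had 0 of 76 core genes called by edgeR and 0 by DESeq2, 6 under an unadjusted p of 0.05 (28.3% of all genes), and a median of −0.05, while 11.3% of all genes were called. The groups did not overlap in 9 core genes (11.8%), against 33.4% of all genes. Rpl10 had the smallest p, with 257, 296 and 328 CPM in recovery lungs and 349, 337 and 367 CPM in heat lungs (−0.26, SE 0.09, adjusted p = 0.0942 by edgeR). All 3 recovery libraries were below all heat libraries. The extremes were Rpl30 at −0.32 and Rpl38 at 0.22. Rps14 was called lower without heat lung 2 and Rps27 without recovery lung 3, each as the sole core gene, while 14.8% and 4.97% of all genes were called in those fits. Within the recovery group the libraries differed more than the groups did: the median deviation of the core genes from the control mean was −0.12, −0.01 and 0.11 on the log2 scale in the 3 recovery lungs, against 0.02, 0.04 and 0.10 in the heat lungs and −0.08, 0.04 and 0.03 in the control lungs.

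**Figure D2:**
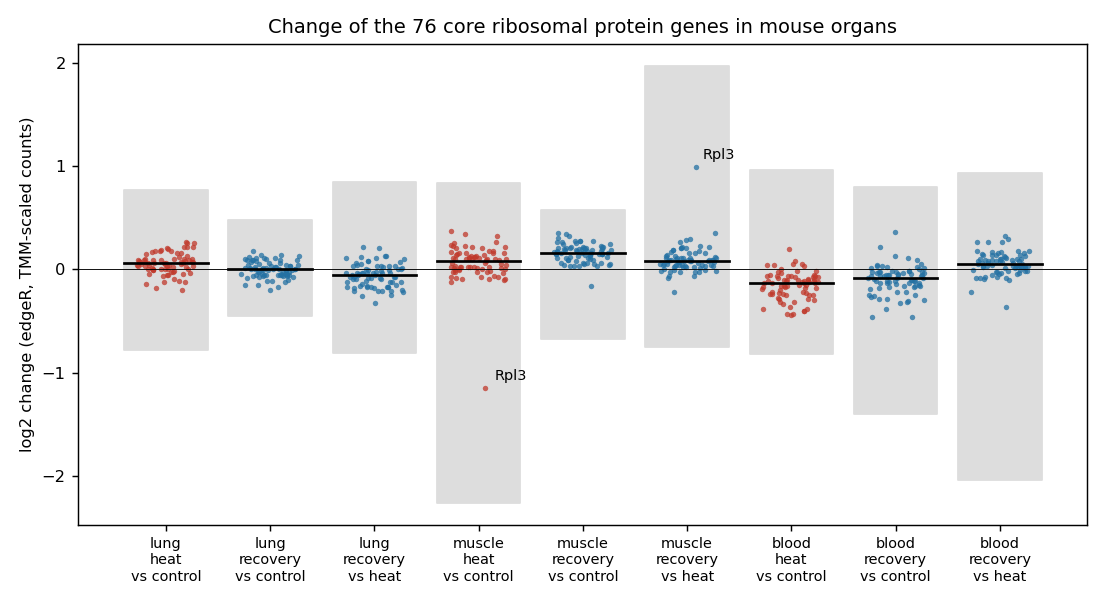
Log2 change of each of the 76 core genes (points) in the 9 comparisons within mouse organs, from edgeR on TMM-scaled counts, red for heat against control and blue for the comparisons of recovery; the black line is the median of the core genes and the grey box runs from the 5th to the 95th percentile of all genes tested. The points stay close to 0 and inside the grey box, with Rpl3 in muscle farthest out, at −1.15 in heat against control and 0.99 in recovery against heat, also inside the box.

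In muscle the core genes also kept together after heat shock, with 1 member apart. Heat muscles summed to 5951 to 6373 CPM over the core genes and control muscles to 5223 to 6124 CPM. By edgeR, 0 of 76 core genes were called in heat against control, 3 had an unadjusted p under 0.05 (30% of all genes did) and DESeq2 called 1, Rpl3, while 0.428% of 17746 genes were called. The median log2 change was 0.09 and the SD 0.18, against −0.05 and 1.04 for all genes, and the interval of the fold change lay within 2-fold for 75 of 76, the exception being Rpl3. In 9 core genes (11.8%) heat and control did not overlap, against 37.7% of all genes. Rpl30 was highest at 0.37 (SE 0.16), with 59.4, 90.0 and 64.9 CPM in heat muscles and 58.0, 49.8 and 58.3 CPM in control muscles, so that the second heat library set most of the difference. Rpl24 had 49.96, 47.3 and 51.4 CPM in heat muscles and 40.6, 32.9 and 43.8 CPM in control muscles (0.34, SE 0.13, adjusted p = 0.137 by edgeR). The raw share of counts gave the other sign for the block: the core genes held 0.491%, 0.547% and 0.577% of all counts in heat muscles and 0.718%, 0.649% and 0.586% in control muscles, without overlap, and under library totals the core median was −0.29, with all 76 genes below 0 and the median of all genes at −0.43.

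Recovered muscle had slightly higher TMM-scaled values across nearly the whole set. The core sum was 6131 to 6768 CPM in recovery muscles, all above the control muscles. Against control, 75 of 76 core genes had a log2 change above 0, with a median of 0.16 (SD 0.09), and in 19 of them (25.0%) recovery and control did not overlap, against 9.52% of all genes. No member passed the test: 0 were called by edgeR and 0 by DESeq2, 5 had an unadjusted p under 0.05 (4.95% of all genes did), and 0.0676% of all genes were called. Rpl32 was highest, with 56.3, 51.5 and 57.7 CPM in recovery muscles and 49.2, 39.0 and 41.7 CPM in control muscles (0.35, SE 0.11, adjusted p = 0.725 by edgeR), and Rpl3 was lowest at −0.16. Under library totals the core median was 0.01, with 44 genes above 0. Control muscle 2 was low for the set as a whole, with a median deviation of −0.13 from the control mean. Against heat, recovery muscles had 0 of 76 core genes called by edgeR and 0 by DESeq2, 1 under an unadjusted p of 0.05 (19.7% of all genes) and a median of 0.08, while 0.468% of all genes were called. The groups did not overlap in 8 core genes (10.5%), against 26.4% of all genes. The core share of counts was 0.782%, 0.579% and 0.609% in recovery muscles, all above the heat muscles.

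**Figure D3:**
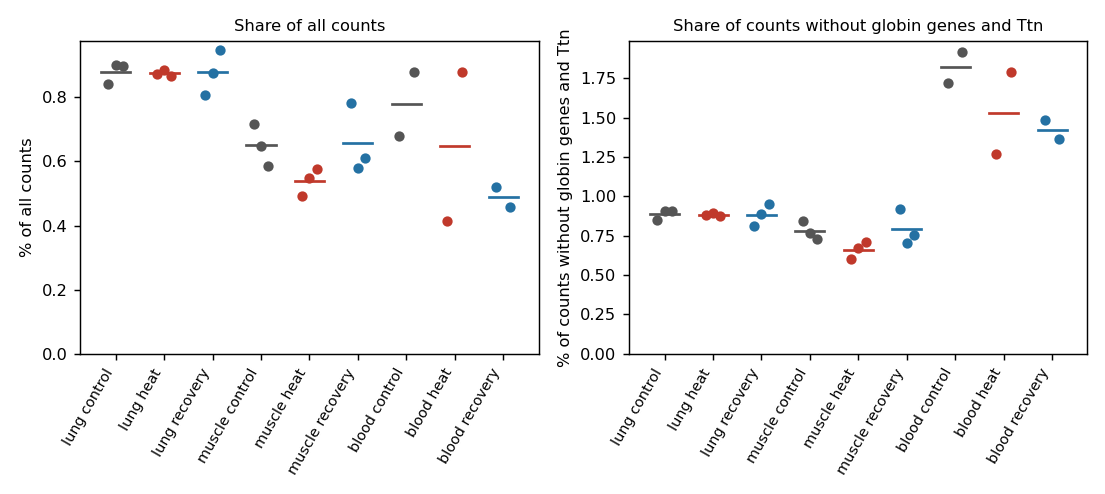
Share of the 76 core genes in all counts (left) and in the counts without globin genes and Ttn (right), in percent, for control, heat and recovery libraries of each organ; points are libraries and bars are group means. Lung libraries lie between 0.809% and 0.948% of all counts, heat muscles lie below control muscles, and the heat bloods are far apart at 0.415% and 0.880%.

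Rpl3 and its muscle paralogue Rpl3l had opposite values in muscle. Rpl3 had 26.3, 29.2 and 40.3 CPM in heat muscles and 86.7, 83.8 and 42.3 CPM in control muscles. No heat library reached a control library, but control 3 was close to heat 3. The log2 change was −1.15 (SE 0.43, 95% interval −2.14 to −0.16), with an adjusted p of 0.138 by edgeR and 0.0458 by DESeq2. It passed in edgeR when recovery muscle 1 was left out of the shared fit (adjusted p = 0.0342), a setting in which 15% of all genes were called, and the adjusted p lay between 0.0342 and 0.338 over the 9 libraries left out in turn. Rpl3l had 358, 332 and 302 CPM in heat muscles and 200, 179 and 277 CPM in control muscles, again without overlap (0.60, SE 0.23, adjusted p = 0.139 by edgeR). Rpl3l thus made up 93.1%, 91.9% and 88.2% of the counts of the pair in heat muscles and 69.7%, 68.1% and 86.7% in control muscles. In recovery muscles Rpl3 had 107, 42.9 and 39.9 CPM, Rpl3l had 181, 288 and 294 CPM, and the share of Rpl3l was 62.8%, 87.0% and 88.1%. Recovery 1 thus lay with controls 1 and 2, and recovery 2 and 3 lay with control 3.

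Controls 1 and 2 and recovery 1 also stood apart in fast fibre and lymphocyte genes. The 10 fast fibre genes summed to 114700, 108180 and 100230 CPM in heat muscles, 65381, 61180 and 97583 CPM in control muscles and 59122, 97044 and 107500 CPM in recovery muscles. Ranked by Rpl3 from high to low and by fast fibre genes from low to high, the 9 muscle libraries came in the same order apart from controls 1 and 2, which changed places. The 18 T and NK cell genes summed to 3.59 to 9.97 CPM in heat muscles, to 124, 78.2 and 32.8 CPM in control muscles and to 174, 3.56 and 4.71 CPM in recovery muscles, so the same 3 libraries were the highest. The 12 B cell genes were highest in them too, at 352 and 224 CPM in controls 1 and 2 and 524 CPM in recovery 1, against at most 125 CPM in the other muscles. The fibroblast and slow fibre lists did not set these 3 libraries apart. The 8 fibroblast and matrix genes summed to 1094, 1368 and 1482 CPM in heat muscles, 3146, 3511 and 1635 CPM in control muscles and 1915, 2469 and 1710 CPM in recovery muscles. The 8 slow fibre genes summed to 85.4, 217 and 1414 CPM in heat muscles, 279, 413 and 163 CPM in control muscles and 1636, 1214 and 179 CPM in recovery muscles. The part of any of these cells in the Rpl3 values was not tested. The elongation factor 1A genes, a pair added after their values were seen, followed the same libraries: Eef1a2, the muscle form, had 1966, 1685 and 1410 CPM in heat muscles and 994, 858 and 1347 CPM in control muscles, and Eef1a1, the general form, had 163, 180 and 268 CPM in heat muscles and 528, 527 and 270 CPM in control muscles.

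**Figure D4:**
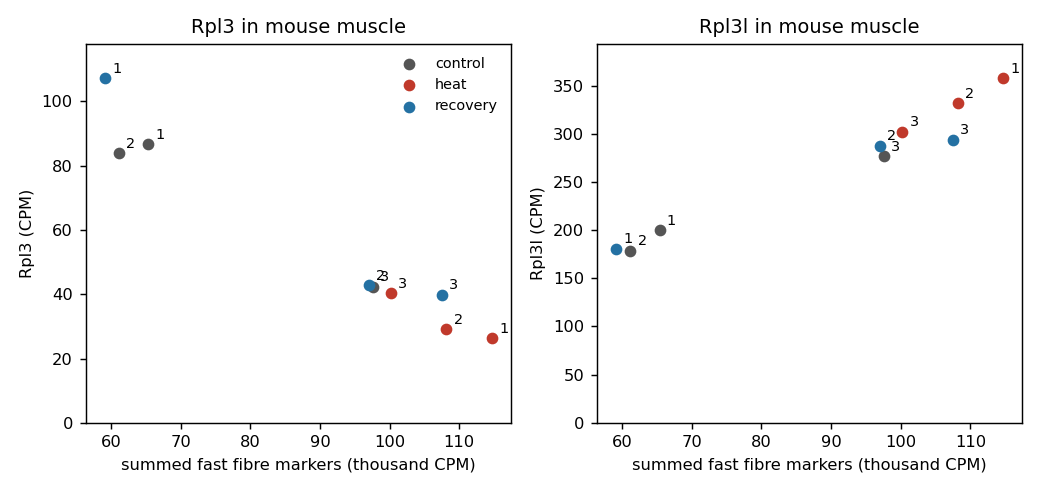
TMM-scaled CPM of Rpl3 (left) and Rpl3l (right) in each of the 9 mouse muscle libraries against the summed CPM of 10 fast muscle fibre genes, coloured by condition and labelled with the replicate number. Controls 1 and 2 and recovery 1 have the lowest fibre sums, the highest Rpl3 and the lowest Rpl3l. Heat 1 and 2 lie at the other end, while heat 3 lies near control 3 and recovery 2 and 3.

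In blood, with 2 libraries per group, values of the core genes were lower after heat in 1 library. Heat bloods summed to 5477 and 6278 CPM over the core genes and control bloods to 6302 and 6371 CPM. By edgeR, 0 of 76 core genes were called in heat against control, with 4 under an unadjusted p of 0.05 (14.8% of all genes) and 0 called by DESeq2, and 0% of 15869 genes were called. The median log2 change was −0.13 and 68 of 76 genes were below 0. In 34 core genes (44.7%) the groups did not overlap, close to the 43.6% of all genes. The lowest was Rps26 at −0.44 and the highest Rpl30 at 0.20. Rps29, a zinc-binding protein of the small subunit, had 18.03 and 36.0 CPM in heat bloods and 37.9 and 35.3 CPM in control bloods, so only the first heat library was low. The median deviation of the core genes from the control mean was −0.28 in heat 1 and −0.02 in heat 2. Without heat 2, 11 core genes were called lower (Rpl19, Rpl21, Rpl22, Rpl23a, Rpl37a, Rpl38, Rps15a, Rps21, Rps25, Rps26 and Rps29, by edgeR, with the lone heat library assumed to vary like the other groups), which is 14.5% of the core genes against 4.46% of all genes called in that fit, and the median was −0.28. Without heat 1 there were 0 calls among core genes, against 0.257% of all genes, and the median was −0.03. The 11 erythroid genes summed to 906040 CPM in heat 1 and 370160 CPM in heat 2, against 572870 and 400440 CPM in control bloods, so heat 1 was high in erythroid RNA. Its part in the low values was not tested.

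Recovery bloods summed to 6084 and 6197 CPM over the core genes. Against control, 0 of 76 were called by edgeR and 0 by DESeq2, 3 had an unadjusted p under 0.05 (8.93% of all genes did), and 0% of all genes were called. The median was −0.08, with 62 genes below 0, and in 49 core genes (64.5%) the groups did not overlap, against 52% of all genes. Rpl23 had the smallest p, with 29.3 and 29.1 CPM in recovery bloods and 37.9 and 42.3 CPM in control bloods (−0.46, SE 0.11, adjusted p = 0.544 by edgeR). Rpl36a was lowest at −0.47 and Rpl41 highest at 0.36. Against heat, 0 of 76 core genes were called by edgeR and 0 by DESeq2, 0 had an unadjusted p under 0.05 (24.2% of all genes did), and the median was 0.05, while 3.99% of all genes were called. The groups did not overlap in 15 core genes (19.7%), against 55.9% of all genes. The extremes were Rpl30 at −0.36 and Rpl41 at 0.32. The count of 0 rested on the heat pair: without heat 2, Rps15a, Rps21, Rps26 and Rps29 were called higher (5.26% of the core genes, against 7.77% of all genes called), and without heat 1, Rpl30 was called lower (1.32%, against 11.4%). Under library totals the core median was −0.29 in heat against control, −0.71 in recovery against control and −0.42 in recovery against heat, while the median of all genes was −0.17, −0.64 and −0.43. Recovery bloods had 771380 and 917780 CPM of the erythroid genes.

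The paralogue rows that could be tested gave 0 calls in the 9 comparisons by edgeR, and 2, Rpl3l and Rpl22l1 in heat against control in muscle, had an unadjusted p under 0.05. These were 2 of the 6 rows tested in muscle, near the 30% of all genes with such a p in that comparison. DESeq2, read for Rpl3l, Rpl22l1, Rps27l and Rps4l, called 0 of these 4. In muscle, Rpl22l1 had 14.0, 15.6 and 11.1 CPM in heat muscles and 11.8, 9.16 and 9.37 CPM in control muscles (0.43, SE 0.18, adjusted p = 0.154), and Rps27l had 33.6, 33.9 and 31.8 CPM in heat muscles and 26.8, 26.9 and 28.7 CPM in control muscles (0.27, SE 0.14, adjusted p = 0.205). The heat and control libraries of Rps27l did not overlap, and those of Rpl22l1 did.

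The response of the core genes was also compared directly between organs, as the muscle minus lung difference in a fit over both organs. For heat against control, 0 of 76 core genes differed by edgeR and 0 by DESeq2, with 1 under an unadjusted p of 0.05, a median difference of 0.03 and 0.0328% of 21337 genes called. Rpl3 had the largest difference, −1.19 (SE 0.44, adjusted p = 0.18 by edgeR, between 0.0267 and 0.359 with single libraries left out), and it was called without muscle recovery 1, where 6.59% of all genes were called. For recovery against control, 0 of 76 differed by edgeR and 0 by DESeq2, with 1 under an unadjusted p of 0.05, a median difference of 0.13 and 0.0469% of all genes called. The share of all genes under an unadjusted p of 0.05 was not counted for these differences, so those counts have no background here. Since both organs' comparisons use their own control libraries, the difference carries the doubt about muscle controls 1 and 2.

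The neighbouring lists give the setting. The 5 ribosomal proteins outside the name rule had 0 calls in the 9 comparisons within organs by edgeR. They had 2 unadjusted p-values under 0.05, both in comparisons of recovery muscle. Of all genes in muscle, 4.95% had such a p in recovery against control and 19.7% in recovery against heat. DESeq2 was not read for the lists. Of 20 other genes with TOP messengers, mostly translation factors, 0 were called in heat against control in any organ, with 1, 6 and 1 under an unadjusted p of 0.05 in lung, muscle and blood, against 23.5%, 30% and 14.8% of all genes. Of these 20, 1, the RNA-binding splicing protein Hnrnpa1, was called higher in recovery against heat in lung (0.24, SE 0.07), where 11.3% of all genes were called. The 78 mitochondrial ribosomal protein genes, which serve the ribosome of the mitochondrion, were counted between control organs in the same way, and their difference from the cytosolic set was not tested. Of the 78, 76 were called higher in muscle than in lung (median 1.55, against 29.8% of all genes called higher) and 75 higher in muscle than in blood (median 1.49, against 39.7%), while 15 were higher and 7 lower in blood than in lung (median 0.13, against 28.8% and 35.2%). Under library totals the counts were 41 higher and 1 lower in muscle than in lung (median 0.51), against 12.3% and 59.9% of all genes. In muscle against blood 76 were then higher (median 2.04), against 48.2% of all genes. In blood against lung 77 were lower (median −1.47), against 73.4% of all genes, whose median, given above, was lower still. In heat against control their median was 0.30 in muscle, −0.25 in blood and −0.04 in lung, with 0, 0 and 2 calls by edgeR (0.428%, 0% and 5.85% of all genes were called), and 28, 14 and 11 genes under an unadjusted p of 0.05 (30%, 14.8% and 23.5% of all genes). The 2 called in lung were Mrps6 (1.31, SE 0.27) and Mrps7 (0.44, SE 0.10), both higher.

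Single genes of 3 neighbouring lists passed the test in lung, while most genes of those lists did not. Ddit4, which inhibits mTORC1 under stress, had 64.5, 45.9 and 55.8 CPM in heat lungs and 10.3, 15.1 and 13.6 CPM in control lungs. The groups did not overlap and the log2 change was 2.09 (SE 0.15, adjusted p = 0.000307 by edgeR). Sesn2, another stress inhibitor of mTORC1, rose by 0.67 (SE 0.17), Cdkn1a, the p53 target that halts the cell cycle, by 1.70 (SE 0.25), and Ipo7, which imports ribosomal proteins into the nucleus, by 0.42 (SE 0.09). These were 2 of 23 regulators, 1 of 5 genes of the list of the 5S particle and p53 checkpoint, and 1 of 48 genes of ribosome assembly, with none called lower, against 5.85% of all genes called. In recovery against heat, Ddit4 (−2.13), Larp4 (−0.32), Eif4e (−0.30) and Sesn2 (−0.58) fell among the regulators, Cdkn1a fell by 1.95 and Ipo7 (−0.56), Wdr12 (−0.65) and Mdn1 (−0.54) fell among the assembly factors. These were 4 of 23, 1 of 5 and 3 of 48 genes of the lists, against 11.3% of all genes called. Mdn1 is the large motor that strips assembly factors from the growing large subunit.

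Muscle and blood gave fewer calls. In muscle Nle1, which works with Mdn1 on the large subunit, had 190, 91.2 and 216 CPM in heat muscles and 6.73, 6.15 and 7.66 CPM in control muscles (4.598, SE 0.53, adjusted p = 0.027 by edgeR). Its recovery values were 9.41, 34.4 and 19.8 CPM. It was the 1 call among the 48 assembly genes in heat against control, where 0.428% of all genes were called. Ddit4 fell in muscle in recovery against heat, with 5.81, 3.45 and 4.08 CPM in recovery muscles and 33.8, 43.7 and 19.0 CPM in heat muscles (−2.85, SE 0.39). In that comparison 0.468% of all genes were called. In blood, recovery against heat gave falls of Ddit4 (−2.53, SE 0.34), Sesn2 (−1.15, SE 0.17) and Ipo7 (−0.86, SE 0.13) and a rise of Tia1, an RNA-binding protein of stress granules (0.93, SE 0.13). In this blood comparison 3.99% of all genes were called.

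**Figure D5:**
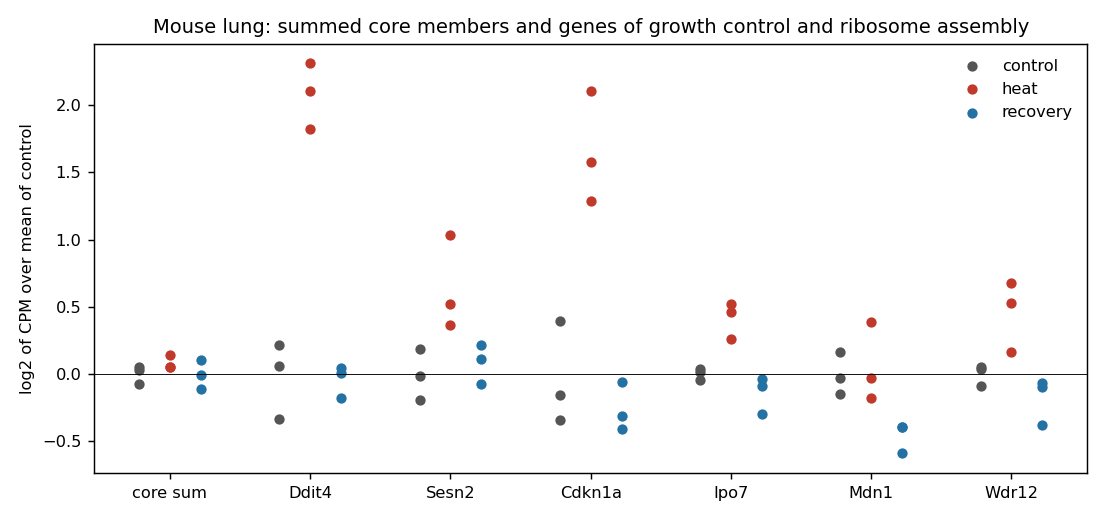
Log2 of the CPM over the mean of the control lungs for the sum of the 76 core genes and for 6 genes of growth control and ribosome assembly, in control, heat and recovery lungs (3 libraries each), 1 point per library. The core sum stays near 0 in every library, while Ddit4, Cdkn1a and Sesn2 lie above 0 in all 3 heat lungs and near or below it in recovery lungs.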

How the data were processed

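The authors deposited a table of read counts per gene for the mouse libraries, made from total RNA with a directional library kit, per the labels' protocols. STAR 2.7, featureCounts and the build GRCm39 are named in the submitters' processing notes. For the strand setting of the counting, the sources used here give nothing. Counts were used as deposited, and 0 of the per-sample columns were unmapped. Genes passed edgeR's filterByExpr (minimum count 10, total 15) and were tested with edgeR 4.0.16 (R 4.3.3), TMM factors and the robust quasi-likelihood fit. There was 1 fit per organ over its 3 conditions, 1 over the control libraries and 1 over lung and muscle. Calls needed a Benjamini-Hochberg adjusted p below 0.05, and intervals are 95%. DESeq2 1.42.0, other scalings, no filter, 2 groups alone, a replicate block and left-out libraries were alternatives. Scripts were tested on simulated counts. Pairs of replicates differed by at least 11.6 times counting error, so none was counted as a copy. Sequences and coding lengths come from GENCODE M21 (GRCm38), with the transcript of best APPRIS tag and then longest coding sequence, and pairs were aligned with Biopython 1.88. As the builds differ, no coordinates are given. The members and gene lists were chosen with earlier results of these data known. Genes named are a fixed panel, all paralogues, and per comparison the 4 called members with the smallest p in each direction and the extremes. Values of some single genes are not reported here.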

Additional observations from a re-analysis of the deposited data

How the results depend on the processing

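Scaling moved the block most. With library totals and no scaling factors, the core median was −0.29, −0.71 and −0.42 in blood (heat against control, recovery against control, recovery against heat), −0.028 and 0.034 in lung (heat against control, recovery against heat), and −0.29, 0.014 and 0.30 in muscle. Between control organs it was −0.20 for blood against lung, −0.29 for muscle against blood and −0.44 for muscle against lung, with 12, 26 and 43 calls. Among the genes followed singly, the same scaling turned Rpl12 (−0.39), Rpl22 (−0.52), Rpl23 (−0.46), Rpl30 (−0.43), Rpl32 (−0.32), Rplp1 (−0.13) and Rps27 (−0.998) in muscle against lung, and Rpl21 (−0.67), Rpl22 (−1.23), Rpl22l1 (−0.35), Rpl24 (−0.41), Rpl3 (−0.54), Rpl30 (−0.19), Rplp1 (−0.0072) and Rps2 (−0.38) in blood against lung; of all 76 core genes 72 and 52 lay below 0 in these comparisons. DESeq2 and RLE factors each gave medians of 1.30 for blood against lung, 0.51 for muscle against lung and 0.16 for the muscle minus lung difference with heat. No filter gave 1.32 for blood against lung, and 2 groups alone gave 0.022 for recovery against heat in blood. DESeq2 called 1 member in heat against control in lung and 1 in muscle. With single libraries left out, the medians ran from −0.28 to −0.025, −0.10 to −0.056 and −0.078 to 0.19 in blood, from −0.12 to −0.0085 for recovery against heat in lung, from −0.90 to −0.78 for control muscle against blood and from 0.067 to 0.20 for the recovery difference. The calls ran from 0 to 11 and from 0 to 4 in blood (heat against control, recovery against heat), and from 0 to 1 in lung recovery against heat, in muscle heat against control and in the heat difference. The labels do not say that equal numbers pair libraries. Not every correlation of same-numbered libraries passed 0.1 (−0.158 to 0.129 in lung, −0.415 to 0.554 in muscle, −0.0613 to 0.609 in blood and −0.00863 to 0.142 between control organs). Differently numbered libraries ran from −0.22 to 0.24 in lung and from −0.577 to 0.388 in muscle. With 2 libraries a group, a blood correlation only changes sign when the partner is swapped, so it cannot show pairing. With the replicate block 0 core genes were called within lung, muscle and blood. Between control organs it gave 76, 65 and 62 calls in blood against lung, muscle against blood and muscle against lung. The main fits of these comparisons called 64%, 69.9% and 60.2% of all genes in either direction. The shares under the block are not given here. In blood the block left 1 residual degree of freedom, and the core median was −0.19 in heat against control and −0.12 in recovery against control, both added after the other results were seen. The block moved no core count across 0. Blood rests on 2 libraries a group, and the muscle values of Rpl3 rest on controls 1 and 2 and recovery 1.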

Other observations

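Rpl30 marked the same library number in all 3 organs, and it was chosen after its values were seen. This protein of the large subunit had 128, 90.0 and 91.4 CPM in heat 2 of lung, muscle and blood. The other libraries had 70.4 to 89.9 CPM in lung (median 81.8, n = 8), 49.8 to 64.9 CPM in muscle (median 58.9, n = 8) and 45.9 to 62.4 CPM in blood (median 56.0, n = 5). Heat 2 was thus the highest library in each organ, at 1.56, 1.53 and 1.63 times the median of the others. Of the members tested, Rpl30 alone had 1 library of the same condition and number at the top or bottom of all 3 organs, but blood holds no heat 3, recovery 3 or control 2, so these could be compared in lung and muscle alone. Recovery 3 was the highest library in both of those organs for 16 members, Rpl24, Rpl32, Rps25 and Rps29 among them. Heat 3 was the highest for 1, and control 2 was the lowest for 3. The share of all genes with such extremes was not counted. The core genes of recovery 3 lay above the control mean as a set, with median log2 deviations of 0.11 in lung and 0.22 in muscle. The labels do not say whether equal numbers mean the same animal.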
